A study of Mus musculus with 30 samples.

Results

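The 10 genes described here belong to the cytosolic chaperone system and were followed across muscles and surgeries: Hspa8, Hsp90aa1, Hsp90ab1, Dnaja1, Bag3, Hspb1, Hspb6, Hspb7, Hspb8 and Cryab. They were chosen by name, as the rows of the deposited mRNA table that carry these symbols, and 10 of the 11249 genes of the table are members. RNA came from male mice 3 days after surgery, from the gastrocnemius of the hind limb and the triceps brachii of the forelimb. The surgeries were a transection of the spinal cord at the third thoracic level (T3), a transection at the ninth thoracic level (T9), and a sham operation, with 4 libraries per group in the gastrocnemius and 6 per group in the triceps. The series asks how muscle loss after an acute cord injury depends on the level of the lesion. The labels give no strain, age or operation other than these. A bulk muscle library mixes fibres with other cells, so fewer cells of a type and less RNA per cell cannot be told apart in any result here.

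Chaperones bind proteins that are unfolded or newly made and help them to fold or to be degraded. Hsp70 proteins such as the product of Hspa8 cycle between ATP and ADP, J-domain proteins such as that of Dnaja1 hand them clients, and nucleotide exchange factors such as BAG3 release the clients again. Hsp90 proteins act later on folded clients, among them steroid receptors and, in muscle, myosin. Small heat shock proteins hold unfolded clients without ATP, and in striated muscle several of them sit on the sarcomere. HSPB8 and BAG3 work as a complex that clears damaged filamin from the Z-disc. Many of these genes are targets of heat shock factor 1, which binds repeats of the 5-base unit NGAAN in alternating orientation.

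The promoter windows of the members were read from RefSeq (GRCm38.p6), from 250 bases before to 50 bases after each start, to show where a pair of such units lies. Windows were found for 6 of the 10 members, namely Hspb1, Hspb6, Hspb7, Hspb8, Bag3 and Dnaja1. An 8-base pair of units, GAANNTTC, reads the same on both strands and occurred in 5 of these 6 genes, with 2 copies upstream of Hspb1. The other order, TTCNNGAA, occurred in none of them. Of all 27025 genes with such windows, 9.04% held GAANNTTC in at least 1 window, and 9.6% held TTCNNGAA. A match describes letters and is not a binding site. The sites follow with 10 bases on each side where the window allows, 5′ to 3′ on the strand of the gene, with GAANNTTC in capitals and positions counted from the start as 1.
Hspb1, position -117: ttcaacaagaGAAGTTTCcagatggggg
Hspb1, position -97: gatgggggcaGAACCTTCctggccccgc
Hspb6, second of 2 starts, position -120: agtaattattGAAGTTTCtaaataagga
Hspb8, position 3: gaagccaggaGAAGTTTCtaggctcgcg
Bag3, position 43: gatgggaccaGAAGTTTC
Dnaja1, first of 3 starts, position -124: aaagcctctaGAAAATTCtacgaggctc

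The 250 bases upstream of Hspb1 (chr5:135887669-135887918, plus strand) show both copies in place, and those of Hspb7 (chr4:141420529-141420778, plus strand) hold neither order of the units. Hspb7 is shown because it had the largest fitted change of any member in both muscles after T3 transection.
Hspb1: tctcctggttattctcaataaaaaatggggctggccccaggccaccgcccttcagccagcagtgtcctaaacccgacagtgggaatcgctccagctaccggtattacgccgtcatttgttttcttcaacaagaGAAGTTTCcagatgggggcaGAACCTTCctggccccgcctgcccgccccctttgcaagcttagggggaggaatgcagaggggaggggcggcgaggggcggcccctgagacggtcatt
Hspb7: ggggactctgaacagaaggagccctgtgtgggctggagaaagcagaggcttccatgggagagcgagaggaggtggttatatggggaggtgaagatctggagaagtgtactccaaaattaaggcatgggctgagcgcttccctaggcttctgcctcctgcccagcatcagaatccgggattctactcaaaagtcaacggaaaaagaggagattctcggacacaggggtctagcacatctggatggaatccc

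Libraries held 13.3 to 23.4 M reads in the genes of the table (M for 1e+06), apart from 88.8 M in the fifth T3 library of the triceps, and the lowest count of a member in any library was 402 reads. Levels are reads per 1e+06 reads of the library (CPM). Muscle fibre markers (6 of 6 in the table, among them Acta1 and Ckm) summed to 63859 to 71384 CPM in gastrocnemius T3, 65815 to 76986 in T9 and 86372 to 95740 in sham libraries, and in the triceps to 56320 to 70577, 69550 to 78536 and 81303 to 115525 CPM in T3, T9 and sham libraries. Macrophage markers (5 of 6 in the table, none at 0) summed to 13.3 to 69.4 CPM outside the triceps sham group and to 13.9 to 873 CPM within it, with the highest in replicate 4. Among them Cd68 had 4.21 to 20.3 CPM in gastrocnemius T3, 7.53 to 11.3 in T9 and 0.452 to 2.34 in sham libraries, and in the triceps 5.89 to 53.6, 1.46 to 4.46 and 0.225 to 13.6 CPM in T3, T9 and sham libraries. In T3, T9 and sham libraries of the gastrocnemius, Lyz2 had medians of 15.8, 18.8 and 22.7 CPM and Ctss 2.05, 1.97 and 3.37 CPM. C1qa had 3.99, 4.04 and 5.31 CPM and Csf1r 3.05, 4.65 and 2.43 CPM. Medians of Lyz2, Ctss and C1qa were thus lower than in sham, with overlap between the groups. Fibroblast markers (4 of 4) summed to 234 to 318 CPM in gastrocnemius T3, 254 to 345 in T9 and 233 to 347 in sham libraries, of which Col3a1 made up 20.8 to 29.8, 30.4 to 58.1 and 54.1 to 86.7 CPM. Endothelial markers (4 of 4) summed there to 147 to 195, 153 to 190 and 42.2 to 182 CPM and Schwann cell markers (3 of 3) to 53.8 to 98.9, 103 to 142 and 44.3 to 173 CPM, each with overlap between injured and sham libraries. The 4 lowest medians over all genes belonged to these libraries: replicate 4 of gastrocnemius sham, replicate 1 of triceps T9, and replicates 3 and 4 of triceps sham. The median over all genes of the log2 difference from sham was 0.27 for T3 and 0.40 for T9 in the gastrocnemius. In the triceps it was 0.23 for T3 and 0.17 for T9. Some of the members' differences in the gastrocnemius are therefore also given less that shift. All others are given with the shift left in. The part of the marker sums in the results below was not tested.

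Together the 10 genes took 0.716% to 1.03% of the reads of gastrocnemius T3 libraries and 0.734% to 0.813% of T9 libraries, against 0.279% to 0.489% of sham libraries. In the triceps they took 0.555% to 1.12% after T3 and 0.369% to 0.554% after T9, against 0.297% to 0.583% in sham libraries. The share lay above every sham library in both injured gastrocnemius groups, while in the triceps the T3 and the T9 libraries each overlapped those of sham. Genes of the mitochondrial genome took 7.48% to 8.06% of the reads in gastrocnemius T3 libraries and 7.66% to 9.28% in T9 libraries, below every sham library (9.54% to 13.1%), and in the triceps the 3 groups overlapped (10.4% to 16.6% after T3, 12.1% to 17.5% after T9 and 11.03% to 16.8% in sham). The part of that share in the members' differences was not tested.

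Levels between genes were compared per kb of exon, as mean CPM per kb with SD. The length is that of all annotated exons of a gene merged: 2999 bases for Hsp90ab1, 4301 for Hspa8 and 8629 for Dnaja1. A single transcript can be shorter than this, so the order between genes depends on the length used. Hsp90ab1, the constitutive Hsp90 gene, led in the gastrocnemius, with 1142 ± 90.8 after T3, 1059 ± 89.2 after T9 and 405 ± 134 in sham libraries (n = 4 each). Cryab, which encodes alphaB-crystallin, came next there with 732 ± 420, 682 ± 154 and 344 ± 89.0 CPM per kb, and its libraries overlapped those of Hsp90ab1 after T3 and in sham but not after T9. In the triceps Cryab led with 955 ± 277 after T3 and 542 ± 74.8 after T9 (n = 6 each), and in sham libraries it had 358 ± 101 against 399 ± 151 for Hsp90ab1, with overlap in all 3 groups. Bag3, Hsp90aa1 and Dnaja1 held the last 3 places in each of the 6 groups. Hspb1, Hspb6, Hspb7, Hspb8 and Hspa8 lay between, and their order differed from group to group: Hspb7 ranked 3 of 10 in triceps T3 at 522 ± 187 CPM per kb and 7 of 10 in triceps sham at 101 ± 51.9. Among these 5, neighbours in the order overlapped in each of the 6 groups, except Hspb7 and Hspb6 in gastrocnemius T9.

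**Figure D1:**
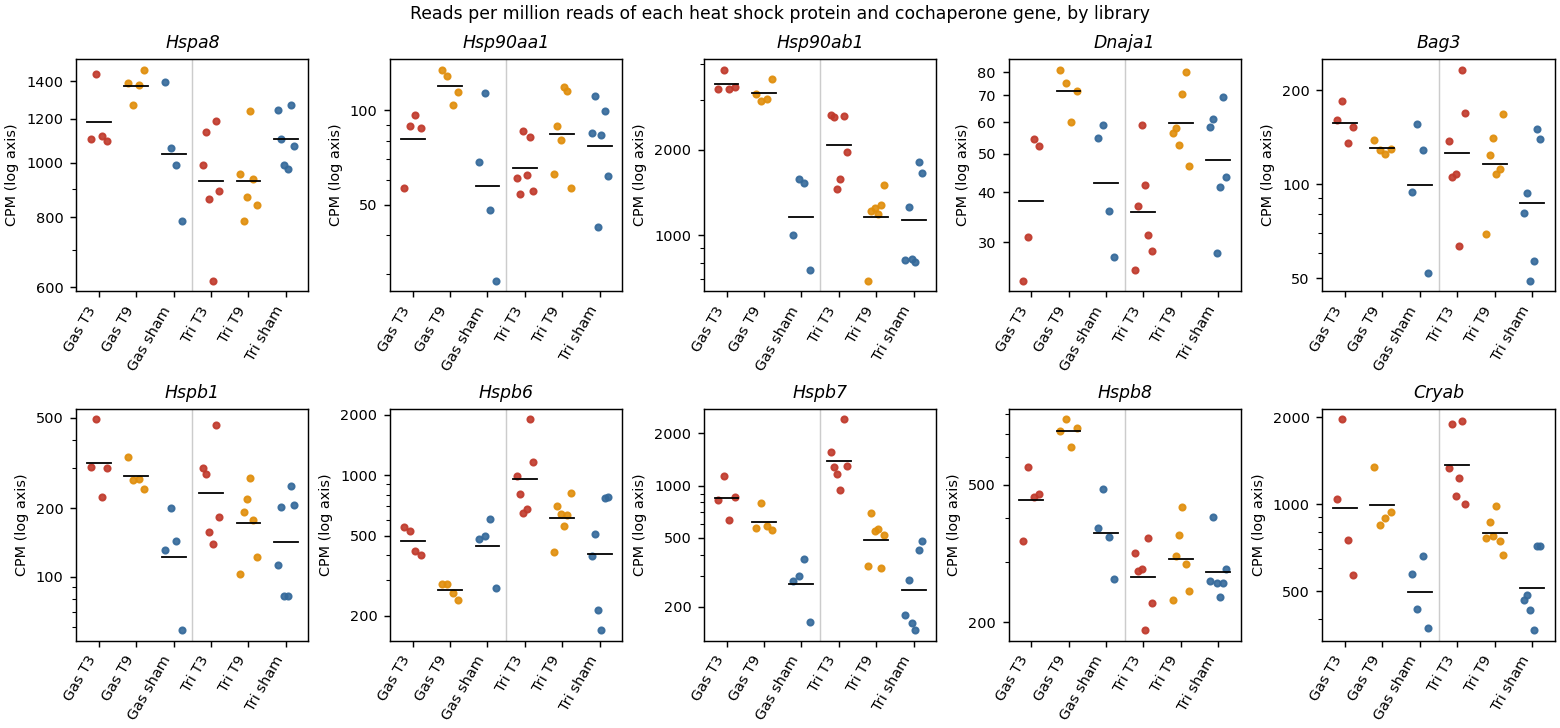
CPM of each of the 10 genes in every library (points, log axis, a panel per gene), by muscle (Gas, gastrocnemius; Tri, triceps) and surgery, with the geometric mean of the group as a line. Hspb7 in triceps T3 lay between 946 and 2417 CPM, above every sham library, whose highest was 480 CPM.

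The first comparison asked how these genes responded in the gastrocnemius, which lies below both lesions, to T3 transection. Hsp90ab1, Hspb7, Hspb1 and Cryab rose and no member fell. Tested with limma over all genes (Benjamini-Hochberg adjusted p under 0.05), 4 of 10 members were called higher, where 27.1% of all genes tested were called higher, and 0 of 10 lower, where 6.65% were. No member reached an unadjusted p under 0.05 in the lower direction either. The members' median log2 difference was 0.58, against 0.27 over all genes. After each library was centred on its median, the counts over all genes were 1641 higher and 1627 lower, in place of 3046 and 748.

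Hsp90ab1 had 3284, 3833, 3269 and 3318 CPM in T3 libraries, against 1004, 1577, 1523 and 754 CPM in sham libraries. All 4 T3 libraries lay above every sham library, a log2 difference of 1.56 ± 0.21 (SE), 2.94-fold, with adjusted p = 0.00015, or 1.29 less the median shift. Hspb7, a small heat shock protein of heart and skeletal muscle, had 823, 1133, 630 and 861 CPM after T3, against 282, 300, 379 and 164 CPM in sham. The groups did not overlap, and the log2 difference was 1.65 ± 0.24 (limma adjusted p = 0.00028), 3.13-fold. Hspb1, which encodes the small heat shock protein Hsp27 (Hsp25 in the mouse) that protects actin filaments, had 305, 494, 225 and 301 CPM after T3, against 131, 201, 144 and 58.0 CPM in sham. It too lay above every sham library, by 1.39 ± 0.32 on the log2 scale (limma adjusted p = 0.0052), and the call was lost with the library median as a covariate (0.73, adjusted p = 0.21).

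Cryab, whose product binds desmin and titin in muscle, had 1045, 1968, 749 and 571 CPM in T3 libraries, against 572, 433, 661 and 371 CPM in sham libraries. T3 replicate 4 lay below sham replicates 1 and 3, so the groups overlapped, and the log2 difference was 0.96 ± 0.32 (limma adjusted p = 0.032). The call rested on single libraries: the difference was 0.62 (adjusted p = 0.081) without T3 replicate 2, 0.93 (0.07) without T3 replicate 1, 1.03 (0.05) without sham replicate 1 and 0.82 (0.065) without sham replicate 4. After median centring it was 0.69 (adjusted p = 0.14), with T3 and sham libraries alone in the fit 0.96 (0.072), and with the library median as a covariate 1.01 (0.14).

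The other 6 members were not called after T3 in this muscle. Bag3 had 160, 185, 136 and 153 CPM after T3, against 94.7, 156, 129 and 52.1 CPM in sham, a log2 difference of 0.66 (adjusted p = 0.062) that was 0.87 (0.011) without sham replicate 2 and 0.78 (0.035) without sham replicate 3. Sham replicate 2 was the highest of its group for 6 of the 10 members: Bag3, Hspb1, Hsp90aa1, Hspb8, Hsp90ab1 and Dnaja1. The difference of Hsp90aa1, the stress-inducible Hsp90 gene, was 0.499 (limma adjusted p = 0.24) with that library and 0.83 (0.021) without it. Hspb8, Hspa8, Hspb6 and Dnaja1 differed from sham by 0.32, 0.19, 0.07 and -0.15 on the log2 scale. Hspa8 and Hspb6 came out below 0 once the median shift was taken off (-0.08 and -0.19).

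The same question was asked of T9 transection, and here more members were called. Hsp90ab1, Hspb8, Hspb7, Hspb1, Hsp90aa1, Cryab and Dnaja1 rose, and Hspb6 fell. These were 7 of 10 members higher, where 37.6% of all genes were called higher, and 1 of 10 lower, where 5.67% were. The members' median log2 difference was 0.99, against 0.40 over all genes. After median centring 1247 genes were called higher and 1398 lower, in place of 4226 and 638, and 3 members stayed called higher, namely Hsp90ab1, Hspb7 and Hspb8, together with Hspb6 lower. With the library median as a covariate, 0 members were called higher. The difference was then 0.64 for Hsp90ab1, 0.37 for Hspb8, 0.48 for Hspb7 and 0.25 for Hspb1 (limma adjusted p = 0.13, 0.38, 0.41 and 0.78), while that of Cryab was 1.06 (0.24). Every T9 library had a higher median over all genes (log2 4.27 to 4.33) than any sham library (3.66 to 4.06). The covariate thus follows the groups, and this fit cannot tell it apart from the injury.

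Hsp90ab1 had 3135, 2984, 3018 and 3565 CPM in T9 libraries, against 1004, 1577, 1523 and 754 CPM in sham libraries. The groups were apart by 1.45 ± 0.21 on the log2 scale, 2.73-fold (limma adjusted p = 3e-04). Hspb8, the partner of BAG3, had 714, 773, 642 and 727 CPM after T9, against 375, 485, 353 and 267 CPM in sham. All T9 libraries were above all sham libraries, by 0.98 ± 0.19 (limma adjusted p = 0.0017), 1.97-fold. Hspb7 had 569, 790, 583 and 553 CPM after T9, against 282, 300, 379 and 164 CPM in sham, a difference of 1.20 ± 0.24 (adjusted p = 0.0024) with no overlap. Hspb1 had 338, 266, 270 and 244 CPM after T9, against 131, 201, 144 and 58.0 CPM in sham, again with no overlap (1.19 ± 0.32, limma adjusted p = 0.01), and the call was lost after median centring (0.79, adjusted p = 0.066).

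Hspb6, which encodes Hsp20, was the member that fell. It had 288, 287, 260 and 240 CPM in T9 libraries, against 479, 499, 606 and 274 CPM in sham libraries. The T9 replicates 3 and 4 lay below every sham library and the others above sham replicate 4 alone, and the log2 difference was -0.74 ± 0.21 (limma adjusted p = 0.014), or -1.13 less the median shift. The call held in each of the 18 alternative settings tried.

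Hsp90aa1 had 135, 128, 104 and 115 CPM after T9, against 68.6, 113, 48.2 and 28.6 CPM in sham, a log2 difference of 1.07 ± 0.32 (limma adjusted p = 0.018). Dnaja1 had 81.2, 75.2, 59.9 and 71.9 CPM after T9, against 54.7, 59.0, 36.0 and 27.6 CPM in sham (0.76 ± 0.28, adjusted p = 0.043). T9 libraries of Dnaja1 all lay above the sham libraries, and those of Hsp90aa1 did so except replicate 3. Both calls were lost after median centring (0.67 and 0.36, adjusted p = 0.1 and 0.3), and both differences were below 0 with the library median as a covariate (-0.17 and -0.26, adjusted p = 0.83 and 0.71). The Dnaja1 call was also lost without any 1 of 6 libraries, at differences of 0.68 and 0.55 without sham replicates 3 and 4, and of 0.699, 0.74, 0.85 and 0.76 without T9 replicates 1, 2, 3 and 4, and its adjusted p was 0.071 with the replicate number as a block.

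Cryab had 1345, 847, 898 and 943 CPM in T9 libraries, against 572, 433, 661 and 371 CPM in sham libraries. The groups did not overlap and differed by 0.997 ± 0.32 (limma adjusted p = 0.023), but the call was lost after median centring (0.598, adjusted p = 0.2) and without T9 replicate 1 (0.85, adjusted p = 0.065). Hspa8 had 1386, 1267, 1377 and 1467 CPM after T9, against 1396, 1062, 991 and 788 CPM in sham. It was not called (0.40, adjusted p = 0.067; 0.55 and 0.024 without sham replicate 1) and stood at the median of all genes, 0.008 above it. Bag3 was not called after T9 either (0.39, adjusted p = 0.23), except without sham replicate 2 (0.601, adjusted p = 0.047).

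Between the 2 lesion levels, no member was called in the gastrocnemius by limma, in either direction, where 0.729% of all genes were called higher and 0.898% lower after T3 than after T9. Of the 10, 3 reached an unadjusted p under 0.05. Hspb6 was above every T9 library in 4 of 4 T3 libraries, by 0.81 ± 0.21 (adjusted p = 0.074), while Hspb8 and Dnaja1 were below every T9 library in 4 of 4, by -0.66 ± 0.19 (adjusted p = 0.098) and -0.91 ± 0.28 (adjusted p = 0.13). Hsp90aa1 also lay below in 4 of 4 (-0.57 ± 0.32, adjusted p = 0.44). Fitted with these 2 groups alone, Hspb6, Hspb8, Dnaja1 and Hsp90aa1 passed, with limma adjusted p = 0.0027, 0.011, 0.029 and 0.041. Hspb6 also passed after median centring (0.93, adjusted p = 0.025). The share of all genes is not given for the unadjusted p, for the 4 of 4 counts or for the fit of 2 groups. These counts are therefore not read as a result about the members. For Hsp90ab1 the T3 minus T9 difference was 0.11, with a 95% interval from -0.34 to 0.56.

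In the triceps, a forelimb muscle, T3 transection was followed by higher Hspb7, Cryab, Hspb6 and Hsp90ab1. These were 4 of 10 members, where 19% of all genes were called higher, and 0 of 10 members were called lower by limma, where 4.32% of genes were; none was lower at an unadjusted p under 0.05. The median log2 difference was 0.62 over the members and 0.23 over all genes. After median centring, 1140 genes were called higher and 894 lower, in place of 2138 and 486. Each of the 4 calls held in all 24 settings tried.

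Hspb7 ranged from 946 through a median of 1291 to 2417 CPM in T3 libraries, against 147, 232 and 480 CPM in sham libraries. All 6 T3 libraries lay above every sham library, by 2.46 ± 0.27 on the log2 scale, 5.52-fold (limma adjusted p = 1.6e-05). Cryab ranged from 1002 through 1285 to 1937 CPM after T3, against 366, 474 and 716 CPM in sham. The groups were again apart, by 1.41 ± 0.19 (limma adjusted p = 9.9e-05), 2.67-fold. Hspb6 ranged from 652 through 901 to 1901 CPM after T3, against 169, 455 and 783 CPM in sham, and 4 of 6 T3 libraries lay above every sham library (1.24 ± 0.26, limma adjusted p = 0.0026). Hsp90ab1 ranged from 1458 through 2293 to 2653 CPM after T3, against 808, 1043 and 1814 CPM in sham, with 4 of 6 T3 libraries above every sham library (0.89 ± 0.21, limma adjusted p = 0.0055).

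Of the triceps libraries, 2 in each group carry the number 57 at the head of their description and the rest 60; what it stands for is not stated in the sources at hand. T3 minus sham was above 0 in both sets for each of the 4 called genes. It was 2.71 in libraries numbered 60 and 1.98 in those numbered 57 for Hspb7, 1.64 and 0.96 for Cryab, 1.40 and 0.94 for Hspb6, and 1.13 and 0.39 for Hsp90ab1. Of the members not called, Hspb1 and Bag3 had log2 differences of 0.72 and 0.52 (limma adjusted p = 0.12 and 0.11), and without T3 replicate 4 Bag3 was called (0.67, adjusted p = 0.032). Hspb8, Hsp90aa1, Hspa8 and Dnaja1 had -0.05, -0.23, -0.25 and -0.43. After median centring Dnaja1 and Hspa8 were called lower (-0.67 and -0.49, adjusted p = 0.037 and 0.046).

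After T9 transection no member was called in the triceps by limma, nor in any of the settings tried. Over all genes 0.00889% were called higher and 0% lower. At an unadjusted p under 0.05 stood 3 members, all higher: Hspb7 (0.95 ± 0.27, adjusted p = 0.24), Cryab (0.63 ± 0.19, adjusted p = 0.28) and Hspb6 (0.60 ± 0.26, adjusted p = 0.45). The share of all genes at an unadjusted p under 0.05 is not given here, so this count is not read as a result about the members. Hspb7 ranged from 333 through 533 to 693 CPM in T9 libraries, against 147, 232 and 480 CPM in sham libraries, with 4 of 6 T9 libraries above every sham library. Cryab ranged from 668 through 771 to 985 CPM after T9, against 366, 474 and 716 CPM in sham, with 5 of 6 above. These differences stood in the libraries numbered 60, with 1.48 for Hspb7, 0.96 for Cryab and 0.96 for Hspb6, and were -0.12, -0.02 and -0.12 in those numbered 57. For Hsp90ab1 the difference was 0.04, with a 95% interval from -0.40 to 0.47.

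**Figure D2:**
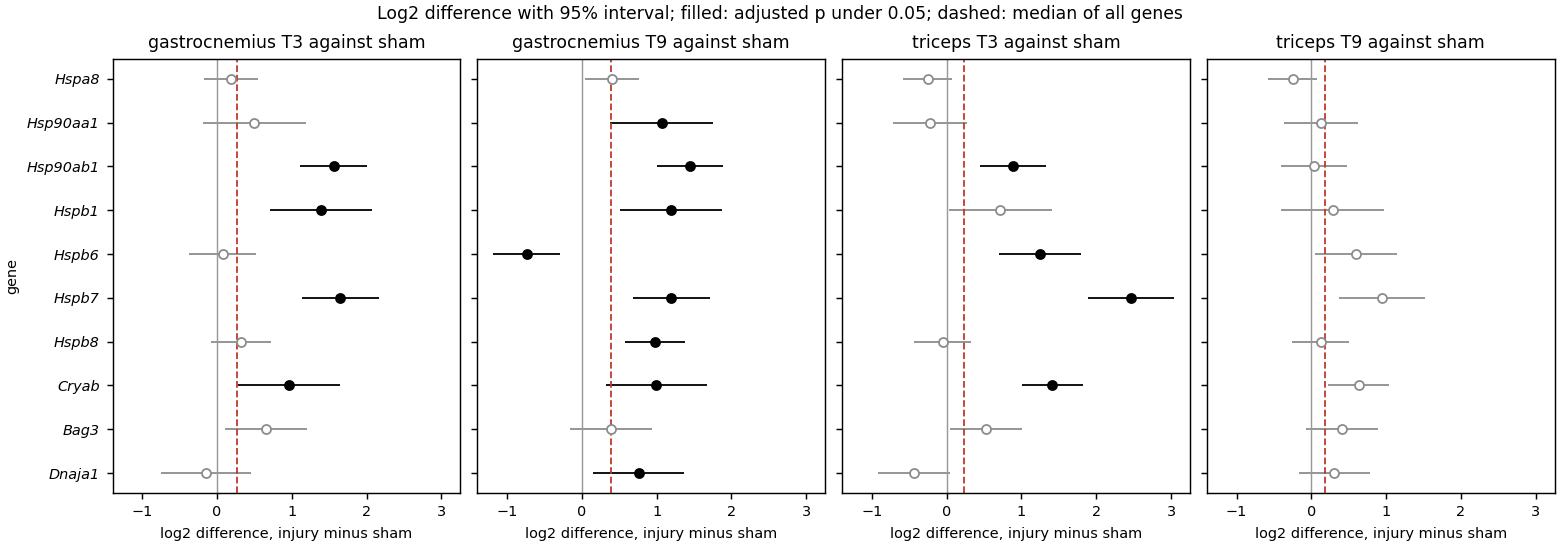
Log2 differences of the 10 genes with 95% intervals for T3 and T9 against sham in each muscle, filled where the limma adjusted p is under 0.05, with the median over all genes as a dashed line. In the triceps 4 genes are filled for T3 against sham and 0 for T9 against sham.

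T3 and T9 transection were set against each other in the triceps as well. Hspb7, Hsp90ab1 and Cryab were higher after T3 than after T9, 3 of 10 members, where 4.95% of all genes were called higher, and 0 of 10 were called lower, where 2.65% were. Hspb7 ranged from 946 through 1291 to 2417 CPM after T3, against 333, 533 and 693 CPM after T9, apart in all 6 libraries (1.52 ± 0.27, limma adjusted p = 0.0025). Cryab ranged from 1002 through 1285 to 1937 CPM after T3, against 668, 771 and 985 CPM after T9, also apart (0.78 ± 0.19, limma adjusted p = 0.018). Hsp90ab1 had 1458, 2293 and 2653 CPM after T3 as lowest, median and highest, against 693, 1233 and 1499 CPM after T9, with 5 of 6 T3 libraries above every T9 library (0.85 ± 0.21, limma adjusted p = 0.016).

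None of the 3 was called in the 4 libraries per group numbered 60 alone (1.23, 0.68 and 0.92 for Hspb7, Cryab and Hsp90ab1, adjusted p = 0.064, 0.17 and 0.18), although the differences there and in the libraries numbered 57 (2.09, 0.98 and 0.72) were all above 0. The Hsp90ab1 call was also lost with the description number left out of the fit (0.85, adjusted p = 0.052). The Cryab call was lost without T3 replicate 2 (0.67, adjusted p = 0.054), T3 replicate 5 (0.69, 0.059) or T9 replicate 6 (0.697, 0.056). Dnaja1 lay below every T9 library in 5 of 6 T3 libraries (-0.74 ± 0.23, limma adjusted p = 0.056), and it was called lower after quantile normalization (-0.84, adjusted p = 0.018), after median centring (-0.80, 0.025) and without T3 replicate 3 (-0.89, 0.018). It was the 1 member with an unadjusted p under 0.05 in that direction. Hspb6 was not called (0.64 ± 0.26, adjusted p = 0.15), but it was called higher without the 4 libraries of lowest median (0.57, adjusted p = 0.048) and with the library median as a covariate (0.502, 0.039). Over all genes quantile normalization gave 529 higher and 459 lower, in place of 557 and 298.

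Description numbers tie 24 libraries to 12 mice sampled in both muscles, 4 per surgery, so the injury effect could be set between muscles within mice. That the number names the mouse is an inference. Hspb6 and Hsp90ab1 differed between the muscles in their response. The T3 effect on Hspb6 was lower in the gastrocnemius than in the triceps, 1 of 10 members, where 1.1% of all genes were called lower and 0.142% higher. The T9 effect was lower in the gastrocnemius for Hspb6 and higher for Hsp90ab1, 1 of 10 members each, where 3.19% of genes were called lower and 3.76% higher.

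Hspb6 in the gastrocnemius minus the triceps of the same mouse was -0.85, -0.61, -0.70 and -0.70 on the log2 scale after T3, and -0.53, -1.30, -1.31 and -1.22 after T9, against 0.27, -0.04, 1.51 and 0.69 in sham mice. Every injured mouse had less Hspb6 in the gastrocnemius than in the triceps and lay below every sham mouse in that difference. The T3 effect differed by -1.32 ± 0.29 (limma adjusted p = 0.042) and the T9 effect by -1.70 ± 0.29 (adjusted p = 0.0044). The T9 call held in each of 16 settings, while the T3 call was lost without the mouse of sham triceps replicate 4 (-1.30, adjusted p = 0.12), without any 1 of the T3 mice (-1.36 to -1.28, adjusted p = 0.08 to 0.13) and without the mouse as a block (adjusted p = 0.18). Sham mouse differences rest in part on triceps sham replicate 3, a low-median library whose mouse gave the 1.51. The mice sampled in both muscles all carry the number 60. In the triceps, Hspb6 after T9 minus sham was 0.96 in libraries numbered 60 and -0.12 in those numbered 57. After T3 it was 1.40 and 0.94. Libraries numbered 57 have no gastrocnemius partner, so no setting could include them in the difference between muscles.

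Hsp90ab1 was higher in the gastrocnemius than in the triceps of all 4 T9 mice, by 2.18, 1.29, 1.28 and 1.58, against 0.29, 0.32, 0.89 and -0.10 in sham mice. The T9 effect differed by 1.23 ± 0.28 (limma adjusted p = 0.018), and the call was lost without the mouse of sham triceps replicate 4 (1.08, adjusted p = 0.059) or of T9 triceps replicate 4 (1.23, 0.051). After T3 the mouse differences were 0.31, 0.55, 1.19 and 1.05, and the effect on Hsp90ab1 was not called different between muscles (0.42, 95% interval from -0.17 to 1.02). Hspb7 lay below every sham mouse in all 4 T3 mice, but the difference of -1.06 ± 0.27 missed the threshold (adjusted p = 0.076; 0.031 after median centring).

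**Figure D3:**
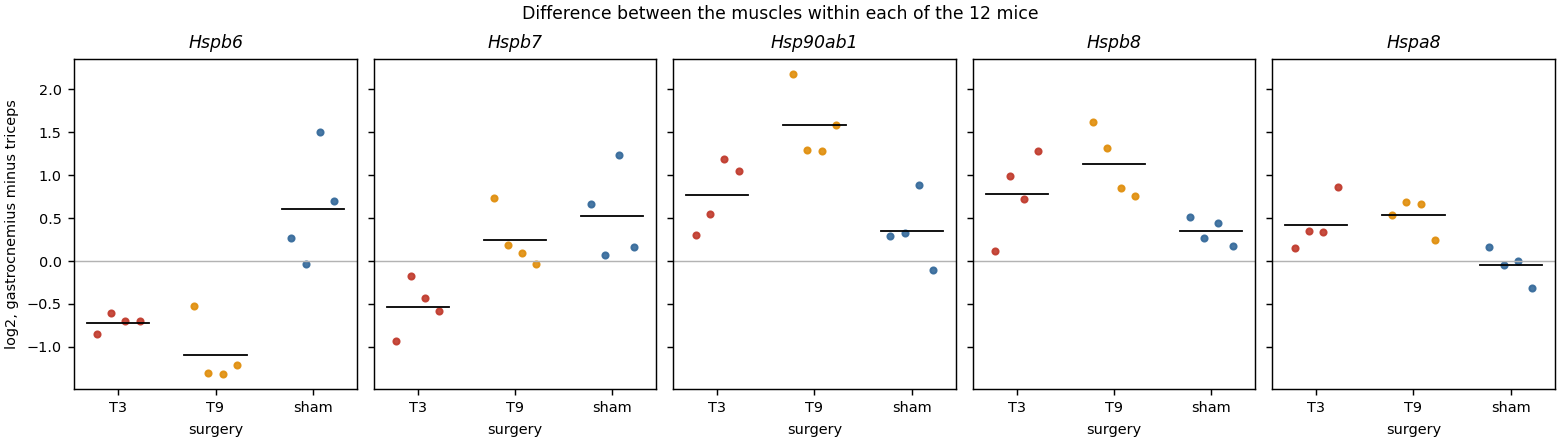
Gastrocnemius minus triceps log2 level in each of 12 mice, by surgery, with the mean of the group as a line. For Hspb6 the 8 injured mice lie below 0 and below each of the 4 sham mice.

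In sham mice themselves Hspb6 and Hspb7 were called higher in the gastrocnemius than in the triceps (0.61 ± 0.20 and 0.53 ± 0.19, limma adjusted p = 0.034 and 0.042), 2 of 10 members where 26.8% of all genes were called higher and 12% lower. Both calls were lost without the mouse of sham triceps replicate 3 (0.31 and 0.30, adjusted p = 0.22 and 0.26), after median centring (0.33 and 0.25) and without the mouse block. Without the mouse of sham triceps replicate 4, Hspb6 missed the threshold (0.58, adjusted p = 0.071) and Bag3 passed it (0.78, adjusted p = 0.034), and without that of replicate 1 Hspb7 missed it (0.49, adjusted p = 0.098). No member was called lower, nor was any lower at an unadjusted p under 0.05, but after median centring Hsp90aa1 and Dnaja1 were (-0.69 and -0.37, adjusted p = 0.03 for both).

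The ratio of a pair of members within a library does not depend on how the library was scaled. Both pairs below were chosen after their values were seen, so no test is given. Hspb7 over Hspb6, as reads and not per length, was 1.496 to 2.15 in gastrocnemius T3 libraries and 1.97 to 2.75 in T9 libraries, against 0.588 to 0.626 in sham libraries. In the triceps it was 1.12 to 1.79 after T3 and 0.527 to 1.01 after T9, against 0.448 to 0.865 in sham. Hspb6 thus outnumbered Hspb7 in every sham library of both muscles, and the reverse held in all T3 libraries and in the gastrocnemius T9 libraries. Hsp90ab1 over Hsp90aa1 was 33.8 to 57.9 in gastrocnemius T3 libraries and 23.2 to 31.1 in T9 libraries, against 13.9 to 31.6 in sham libraries, and in the triceps 17.0 to 48.3 after T3 and 9.99 to 26.5 after T9, against 9.67 to 26.8 in sham. The constitutive gene was the more read of the pair in all 30 libraries, and only in gastrocnemius T3 did the range stand clear of the other groups of its muscle.

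**Figure D4:**
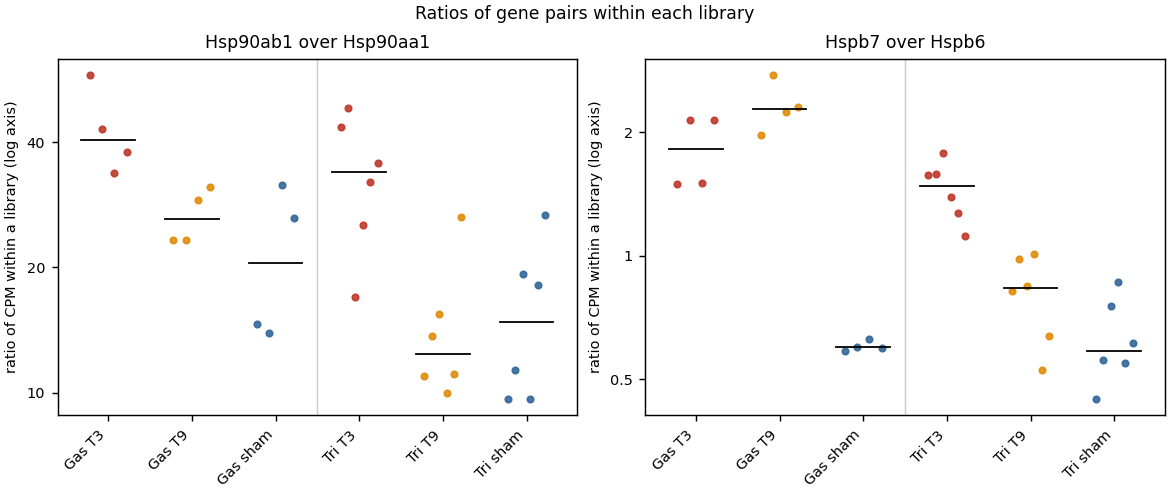
Ratio of reads of Hspb7 over Hspb6 and of Hsp90ab1 over Hsp90aa1 in each library (points, log axis), with the group median as a line. The 4 gastrocnemius sham libraries of the first ratio fall between 0.588 and 0.626.

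Other genes of the chaperone network, 65 of them in the table, were counted from lists by role. These counts are to be read against the shares of all genes. Called higher were 27.1% in gastrocnemius T3, 37.6% in gastrocnemius T9 and 19% in triceps T3, and called lower 6.65%, 5.67% and 4.32%. Counts after median centring are to be read against all genes after centring. Those were 1641 higher and 1627 lower (3046 and 748 before) in gastrocnemius T3. In gastrocnemius T9 they were 1247 and 1398 (4226 and 638 before), and in triceps T3 1140 and 894 (2138 and 486 before). The chaperonin TRiC, an 8-subunit ring that folds actin and tubulin, was called higher in the gastrocnemius in 6 of 8 subunits after T3 and in 8 of 8 after T9, and in the triceps in 5 of 8 after T3 and 0 of 8 after T9. After median centring these counts were 6, 2, 1 and 0. The median log2 difference of the subunits was 0.81 for T3 and 0.79 for T9 in the gastrocnemius and 0.51 for T3 in the triceps, against 0.27, 0.40 and 0.23 over all genes. Cct2 rose there by 1.04 ± 0.13 after T3 (limma adjusted p = 6.9e-05) and by 0.98 ± 0.13 after T9 (0.00013). For 5 of the 8 subunits the T9 effect was higher in the gastrocnemius than in the triceps, where 3.76% of all genes were called higher. Cct2 stood at 1.08 ± 0.16 (limma adjusted p = 0.002). After median centring it was so for 4 of 8 subunits, and for 364 of all genes (423 before).

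Of 9 J-domain proteins, 5 rose in gastrocnemius T3, 4 rose and 1 fell in gastrocnemius T9, and 7 rose in triceps T3 (2 higher and 1 lower, 2 and 1, and 5 and 0 after median centring). Their median log2 difference was 0.49, 0.28 and 0.72 in these comparisons, below that of all genes (0.40) in gastrocnemius T9. Dnajb6, whose product lies at the Z-disc and binds BAG3, rose by 1.06 ± 0.15 in gastrocnemius T3, 0.86 ± 0.15 in gastrocnemius T9 and 0.73 ± 0.14 in triceps T3 (limma adjusted p = 0.00018, 0.00087 and 0.0018). Dnaja4 was the 1 gene of all lists called between lesion levels in the gastrocnemius, at 0.92 ± 0.19 higher after T3 than after T9 (adjusted p = 0.034). Like Hspb6, it had lower T3 and T9 effects in the gastrocnemius than in the triceps (-1.15 ± 0.23 and -1.64 ± 0.23, adjusted p = 0.028 and 0.0016).

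Of 21 Hsp90 cochaperones, 10 rose and 1 fell in gastrocnemius T3, 9 rose and 1 fell in gastrocnemius T9, and 7 rose in triceps T3 (5 and 3, 3 and 3, and 2 and 1 after median centring). Of 14 Hsp70 and Hsp110 proteins and exchange factors, 4 rose and 1 fell, 6 rose, and 3 rose in those same comparisons, where centring gave 3 and 3, 3 and 2, and 2 and 0. The share of these 14 genes called higher was thus near that of all genes in each comparison, and their median log2 difference of 0.16, 0.37 and 0.08 was below that of all genes (0.27, 0.40 and 0.23). Mitochondrial chaperones rose in 1, 3 and 4 of 6 (0, 0 and 2 after centring), with Hspa9, the mitochondrial Hsp70, at 0.92 ± 0.14 in the triceps after T3 (limma adjusted p = 0.00024). Of 3 other small heat shock proteins in the table, 1 was called, lower, in the gastrocnemius after T9. Of the list of Hsf1, Hsf2, Hsf4 and Hsbp1, which encodes a heat shock factor binding protein, 3, 3 and 2 of 4 rose (3, 1 and 2 after centring). Hsf1, which encodes heat shock factor 1, rose in gastrocnemius T3 (0.89 ± 0.18, adjusted p = 0.0027), gastrocnemius T9 (1.05 ± 0.18, 0.00099) and triceps T3 (0.88 ± 0.27, 0.027), and was not called in triceps T9 (0.66 ± 0.27, adjusted p = 0.43). Hsf2 rose in gastrocnemius T3 (0.76 ± 0.16, limma adjusted p = 0.0027) and T9 (0.70 ± 0.16, 0.0042). It was not called in triceps T3 (0.35 ± 0.15, limma adjusted p = 0.11) or T9 (0.21 ± 0.15, 0.57). Above every triceps sham library lay 2 of 6 T3 libraries for Hsf1 and 5 of 6 for Hsf2. In the triceps after T9, 0 of the 65 genes were called. All lists together had 29 higher and 2 lower in gastrocnemius T3, 33 and 3 in gastrocnemius T9, and 28 and 0 in triceps T3, or 19 and 7, 11 and 7, and 14 and 1 after median centring. The median log2 difference of all 65 was 0.45, 0.48 and 0.36, against 0.27, 0.40 and 0.23 over all genes.

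After group means were taken off, 44 of 45 pairs of members had a correlation above 0 over 30 libraries. The median r was 0.489 and the range from -0.078 to 0.894. Genes of a library share its depth and its scaling to a total. Over all 63264376 pairs of genes in the table, 57.24% had a correlation above 0, with a median r of 0.14. Those pairs were not matched to the members in level (CPM per kb), where Hsp90ab1 stood at percentile 99.4 and Dnaja1 at 59.18. The parts of level and of the library medians, which differ within groups, were not tested. Across the 30 libraries, group differences included, the genes with the most similar log2 values to Hsp90ab1 were Eif3b, Ddx27 and Mvp (Pearson r of 0.978, 0.978 and 0.976). Hspb6 went most closely with Got1 (0.957), Dlst (0.914) and the glucose transporter gene Slc2a4 (0.912), Hspb7 with Egln3 (0.938), Aph1a (0.934) and Hspa9 (0.931), and Bag3 with Dag1 (0.954), Psap (0.949) and Safb (0.94). Hspb1 was most like St6galnac4 (0.919), Hspb8 most like Cd82 (0.913) and Cryab most like Tomm40 (0.909).

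For Hspa8, Hsp90aa1 and Dnaja1 the most similar gene was a predicted gene that shares their sequence, so reads may be split between them and these 3 members are uncertain. Of the 31-base words of Gm15459, 91.9% occur in Hspa8, and the pair correlated at 0.986, with means of 167 CPM for Gm15459 and 1082 CPM for Hspa8. Gm12346 shares 83.3% of its words with Hsp90aa1 (r = 0.957, 6.43 CPM against 82.6 CPM), and Gm15542 shares 83.5% with Dnaja1 (r = 0.927, 5.17 CPM against 50.6 CPM). Cryab overlaps Hspb2 (41.7 CPM) on the other strand, as Dnaja1 overlaps Smu1 (41.5 CPM). The library kit keeps the strand, but the sources at hand do not state the strand setting of the counting.

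In the GRCm38 annotation (GENCODE M21) the genes of the members lie at chr9:40800984-40810087 (Hspa8), chr12:110690605-110702728 (Hsp90aa1), chr17:45567775-45573271 (Hsp90ab1), chr4:40722150-40737149 (Dnaja1), chr7:128523616-128546981 (Bag3), chr5:135887919-135889563 (Hspb1), chr7:30552178-30555443 (Hspb6), chr4:141420779-141425311 (Hspb7), chr5:116408491-116422864 (Hspb8) and chr9:50751325-50756636 (Cryab).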

How the data were processed

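Libraries were polyA-selected and strand-specific and were sequenced in pairs, per the labels' protocols. HISAT2 2.1.0, featureCounts, Subread 1.5.1, limma and the GRCm38 build were used by the authors, per the submitters' processing notes. The deposited table gives log2 CPM, with 0.5 reads added before the log: 100% of its values came back as whole reads (tolerance 0.01 reads), with each library scaled to its own total. Symbols were found for 11240 IDs and not for 9. No 2 replicates agreed within sampling noise (lowest chi-square per degree of freedom 9.78).

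Members, lists, tests and alternatives were chosen with earlier results of these data known. The text names all members, and of the other lists up to 4 genes per comparison with the smallest adjusted p, with Hsf1 and Hsf2. Tests used limma 3.58.1 (R 4.3.3, empirical Bayes with trend, two-sided) on genes with log2 of at least 0 in at least 4 libraries, 11248 in the gastrocnemius and 11249 otherwise, with Benjamini-Hochberg adjustment. The triceps fit had a term for the description number, and the fit between muscles the mouse as a block. Libraries of a mouse deviated together in 11 of 12 mice (r above 0.1, mean 0.322, lowest -0.753). P-values measure the spread between libraries. Alternatives were other scalings and filters, a pseudocount of 1 CPM, other sets of libraries, blocks, and each library left out. Differences are on the log2 CPM scale.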

Additional observations from a re-analysis of the deposited data

Results flagged for a closer look

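Of 60 sets of a member and a group, 5 held a library that stood apart from the rest of its group, where chance flags about 1 in 20. Gastrocnemius T3 replicate 2 had 1444 CPM of Hspa8 (others 1094 to 1118) and 3833 CPM of Hsp90ab1 (others 3269 to 3318). Triceps T9 replicate 1, a low-median library, had 693 CPM of Hsp90ab1, below the others at 1190 to 1499. Gastrocnemius T9 replicate 2 had 790 CPM of Hspb7 (others 553 to 583), and triceps sham replicate 2 had 402 CPM of Hspb8 (others 237 to 285).

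The injury effect differed between muscles in the limma interaction term for Hspb6 after T3 (-1.32, gastrocnemius minus triceps) and after T9 (-1.70), each lower in 4 of 4 injured mice than in every sham mouse, and for Hsp90ab1 after T9 (1.23), higher in 4 of 4 T9 mice than in every sham mouse.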

How the results depend on the processing

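Counts of members called are given against those of the report, and single lost calls named above are not all repeated. Counts over all genes are given beside those of quantile normalization and median centring. For the other settings of this section they are not given, so those member counts are not read as a result about the members. With quantile normalization 5 members were higher in the gastrocnemius after T9 (7 before), where 1454 of all genes were (4226 before). In the triceps 1 was then lower after T3 against sham (0 before) and 1 lower after T3 against T9. Over all genes 873 and 459 were lower there (486 and 298 before). In sham gastrocnemius against triceps 1 member was higher (2 before), and 2244 genes were (3020 before). In the gastrocnemius after T3, 4 members were higher with quantile normalization and 3 with median centring (4 before). Over all genes 1677 and 1641 were (3046 before). Median centring left 3 members higher in the gastrocnemius after T9 (7 before) and 1 higher after T3 against T9 there. In the triceps 2 were lower after T3 and 1 against T9. Between muscles 2 were lower in the T3 difference (1 before), and 0 higher and 2 lower in sham. Voom weights with median-of-ratios scaling (added after seeing the data) gave the same counts. Over all genes centring gave 1247 higher after T9 in the gastrocnemius (4226 before) and 172 higher after T3 against T9 (82 before). It gave 894 lower in the triceps after T3 (486 before) and 433 against T9 (298 before). Between muscles it gave 188 lower in the T3 difference (124 before), and 1995 higher and 2270 lower in sham (3020 and 1354 before). With the library median as a covariate (added likewise) the gastrocnemius counts were 2 higher after T3 and 0 after T9, with 1 higher after T3 against T9; 1 was lower in the triceps after T3 against T9, 2 lower in the T3 and 3 higher and 2 lower in the T9 difference between muscles, and 0 higher in sham; Hsp90aa1 and Dnaja1 in the gastrocnemius after T9 turned to -0.17 and -0.26. With the compared groups alone, T3 against T9 gave 1 higher and 3 lower in the gastrocnemius and 1 lower in the triceps. Label number 60 alone left 0 higher in the triceps for T3 against T9. Without the 4 libraries of lowest median, T3 against T9 gave 1 higher and 2 lower in the gastrocnemius and 4 higher (3 before) and 1 lower in the triceps, T3 against sham 1 lower in the triceps, and the gastrocnemius calls of Cryab after T3 and Dnaja1 after T9 were lost (0.82 and 0.55, limma adjusted p = 0.065 and 0.1). Without the mouse block, 0 were lower in the T3 difference and 0 higher in sham. In the gastrocnemius the library medians were 3.66 to 4.06 in sham, 4.05 to 4.26 after T3 and 4.27 to 4.33 after T9. The library median as a covariate is therefore largely confounded with injury there. The cause of the changes in this section was not tested.

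Without 1 library, members higher numbered 3 to 6 and 5 to 8 in the gastrocnemius after T3 and T9, 4 to 5 in the triceps after T3 and 2 to 3 against T9, with 0 to 1 lower there; without 1 mouse, 0 to 1 were lower in the T3 difference, 0 to 1 higher in the T9 difference and 0 to 2 higher in sham. Over single members and settings, 1594 results kept their side of the threshold, 62 lost the call and 42 gained one. A further 2 reversed in sign with a call in at least 1 of the fits. Changes of sign without a call in either fit are counted among the 1594.

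Replicate numbers did not pair the libraries within a muscle (13 of 30 same-number pairs with r above 0.1, from -0.627 to 0.837). With the replicate number as a block, 4 and 6 members were higher in the gastrocnemius after T3 and T9, 4 in the triceps after T3 and 3 against T9. A planned count test on the recovered reads was not run, since the deposited unit is log2. Intervals cover the libraries of this series alone, with 4 to 6 per group.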
